A study of Rattus norvegicus with 10 samples.

Results

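Cyclins, cyclin-dependent kinases (CDKs), CDK inhibitors, pocket proteins and E2F factors were examined as a group in macrophages that had taken up myelin. The group holds every probe set of the array whose single gene symbol names a cyclin, a numbered CDK, a CDK inhibitor, Rb1, Rbl1, Rbl2 or one of the E2F factors, with Cdkn1a and Ccng1 left out. These are 107 of the 31042 non-control probe sets and 69 of the 14217 named genes. The name rule also takes in proteins that are only named after a family member, such as Cdk5rap2 and Cdkn2aip, and these are kept apart below.

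The cells were resident peritoneal macrophages, taken by lavage from rats of strain Hsdcpb:WU (Wistar) and freed of non-adherent cells after 2 hours. Mye-macrophages received 100 µg/ml of myelin isolated from brain for 3 days, and control macrophages were kept without myelin for the same time. Stimulation with IFNγ and IL-1β, at 100 ng/ml for 9 hours, followed in both groups, controls included, so no unstimulated cells stand in the comparison. Each group holds 5 samples on 1 Affymetrix array each, and the deposited values are log2 signals per probe set after RMA, a method that corrects the background, equalizes the arrays and summarizes the probes. The labels give no animal for a sample, so p-values measure the spread between these samples, which may in part be technical. Where samples of the same replicate number are compared as pairs, it is the spread of the differences within pairs.

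Cyclins are the activating subunits of CDKs. In G1, D-type cyclins with Cdk4 or Cdk6, followed by E-type cyclins with Cdk2, phosphorylate the retinoblastoma family (the pocket proteins Rb1, Rbl1 and Rbl2), which releases E2F factors to switch on the genes of DNA replication. A-type and B-type cyclins drive S phase and mitosis with Cdk2 and Cdk1. Inhibitors of the INK4 class bind Cdk4 and Cdk6, and those of the CIP/KIP class bind the cyclin-CDK complex. A separate branch of the family (Cdk7, Cdk8, Cdk9, Cdk12 and Cdk13 with their own cyclins) acts on RNA polymerase II and the Mediator. Resident peritoneal macrophages divide little in culture, and D-type cyclins are the growth-factor sensors of the cycle in cells of this lineage.

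Every sample showed macrophage genes. The lysosomal glycoprotein gene Cd68 had a mean log2 signal of 11.2 in control macrophages and 11.4 in mye-macrophages, and lysozyme (Lyz2) had 12.3 in both. The mean over 11 macrophage markers was 6.36 to 7.33 in control macrophages and 6.41 to 7.59 in mye-macrophages. Of its 9 filtered probe sets 1 passed, that of the mannose receptor gene Mrc1, which was higher in mye-macrophages (log2 fold change 0.71, adjusted p = 0.0265 from blocked limma). The receptor gene Cd163, by contrast, had 0.95 and 1.18, under the median of 2.32 over all probe sets and arrays. Samples with the same replicate number varied together, as all 10 samples correlated best with the sample of their own number in the other group. The groups were compared as 5 pairs, with limma and the replicate number as a block, because the comparison set for these genes asks for it. Benjamini-Hochberg adjustment ran over the more variable 50% of probe sets (by interquartile range), which include 64 of the 107 probe sets and 44 of the 69 genes. In bulk RNA, fewer cells of a type cannot be told apart from less RNA per cell.

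The genes of the group with a probe set called lower in mye-macrophages were Ccnd2, Cdkn1b and Cdk13. Ccnd2 encodes cyclin D2, Cdkn1b the CIP/KIP inhibitor p27 and Cdk13 a kinase of transcription elongation. The further probe sets of Cdkn1b and Cdk13 had log2 fold changes of -0.07 (Cdkn1b) and 0.06 (both of Cdk13), with no call. Without the variance filter only Ccnd2 was still called, and without the replicate block no gene of the group was. In the blocked limma fit 3 of the 64 filtered probe sets passed an adjusted p of 0.05, and all 3 were lower. Over all filtered probe sets 2.69% passed in either direction, 1.9% of them lower and 0.792% higher. No probe set of the group was called higher by limma, and 5 were higher at an unadjusted p under 0.05. At that unadjusted level 13 of 107 probe sets differed (5 higher and 8 lower), a share of 12.1%, which is also the share over all probe sets (5.51% higher and 6.62% lower). The median log2 fold change of the 107 probe sets was 0.01, beside 0.0044 over all probe sets, and 100 of the 107 lay within 0.25 of 0.

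**Figure D1:**
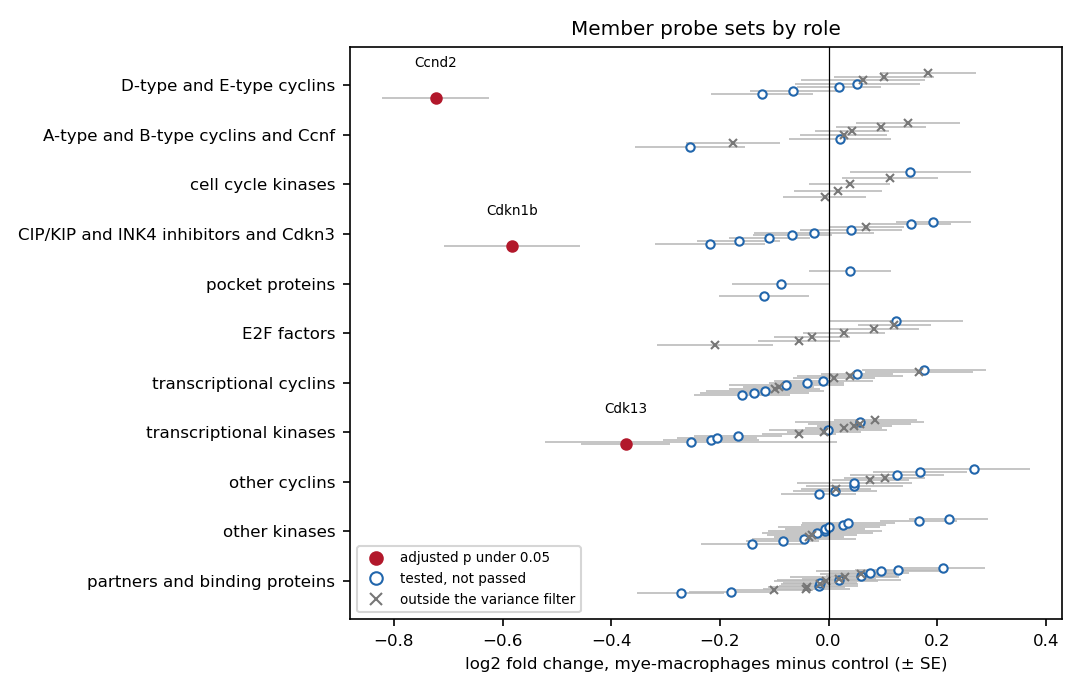
Log2 fold change of each of the 107 probe sets, mye-macrophages minus control macrophages, with its standard error from the blocked limma fit, by role. Filled points passed an adjusted p of 0.05, and the 3 of them (Ccnd2, Cdkn1b and Cdk13) all lie below 0, while crosses are the 43 probe sets outside the variance filter.

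Ccnd2 showed the largest difference of the group. Its only named probe set (1370810_at) had log2 signals of 6.56, 6.24, 5.88, 6.14 and 5.95 in control macrophages of replicates 1 to 5, and of 6.04, 5.80, 5.21, 5.10 and 5.00 in mye-macrophages of the same numbers. Each mye-macrophage sample lay below its partner, by 0.44 to 1.03 on the log2 scale, but the groups overlapped because mye-macrophages of replicate 1 lay above control macrophages of replicates 3 and 5. The means were 6.15 ± 0.27 and 5.43 ± 0.46 (log2 signal, SD, n = 5 each). Ccnd2 fell by 0.72 on the log2 scale, which is 1.65-fold lower (standard error 0.10, 95% interval -0.94 to -0.50, adjusted p = 0.0132 from blocked limma). Without the block the same difference had a standard error of 0.21 and did not pass (adjusted p = 0.534 from limma). The call was also lost without replicate 1 (log2 fold change -0.77, adjusted p = 0.0506 from limma) and without replicate 5 (-0.67, adjusted p = 0.0611 from limma). Ccnd2 is among the genes that the study picked from these arrays for its pathways, so its direction there is not independent evidence.

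Of the other D-type cyclins no filtered probe set passed. Ccnd1, which encodes cyclin D1, has 3 probe sets, with log2 fold changes of -0.12 (1371150_at), -0.06 (1383075_at) and 0.02 (1371643_at). With 1 pair left out these ran from -0.19 to -0.026 (the latter without replicate 1), from -0.12 to -0.017 and from -0.030 to 0.080. On the last of these the control samples had 5.92, 5.34, 5.33, 5.29 and 5.60 and the mye-macrophage samples 6.13, 5.38, 5.39, 5.30 and 5.37, so that replicate 1 was the highest of both groups. On the first, control macrophages had 5.18, 4.27, 4.58, 4.09 and 4.63 and mye-macrophages 4.67, 4.43, 4.54, 3.96 and 4.52, which overlap throughout. Probe set 1383075_at gave 5.86, 5.61, 5.48, 5.34 and 5.61 against 5.92, 5.35, 5.65, 5.19 and 5.46, again with replicate 1 highest and replicate 4 lowest in both groups. The single probe set of Ccnd3 (cyclin D3), which the variance filter did not keep, had 4.56, 4.70, 4.99, 5.09 and 4.98 in control macrophages and 5.03, 4.88, 5.01, 5.04 and 4.87 in mye-macrophages. Its log2 fold change was 0.10 (95% interval -0.11 to 0.31), so an upward or downward change as large as that of Ccnd2 lies outside the interval.

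The change of Ccnd2 was more negative than that of every Ccnd1 and Ccnd3 probe set in 5 of 5 pairs. Against Ccnd3 the gap in log2 fold change was -0.83 ± 0.17 (SD over 5 pairs), and against the 3 probe sets of Ccnd1 it was -0.74 ± 0.20, -0.66 ± 0.29 and -0.60 ± 0.35. In each case the two-sided exact sign-flip permutation test over the pairs gave p = 0.0625, the smallest that 5 pairs allow (adjusted p = 0.0875 over the 7 comparisons of probe sets made in this way, permutation). As the study picked Ccnd2 from these arrays, these gaps are not independent evidence. The plot of signals by sample shows falls of Ccnd2 in all pairs, of unequal size, beside flat or crossing lines of Ccnd1 and Ccnd3. For Ccnd1 it shows only probe set 1371643_at, which had the smallest log2 fold change of the 3 in size (0.02).

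**Figure D2:**
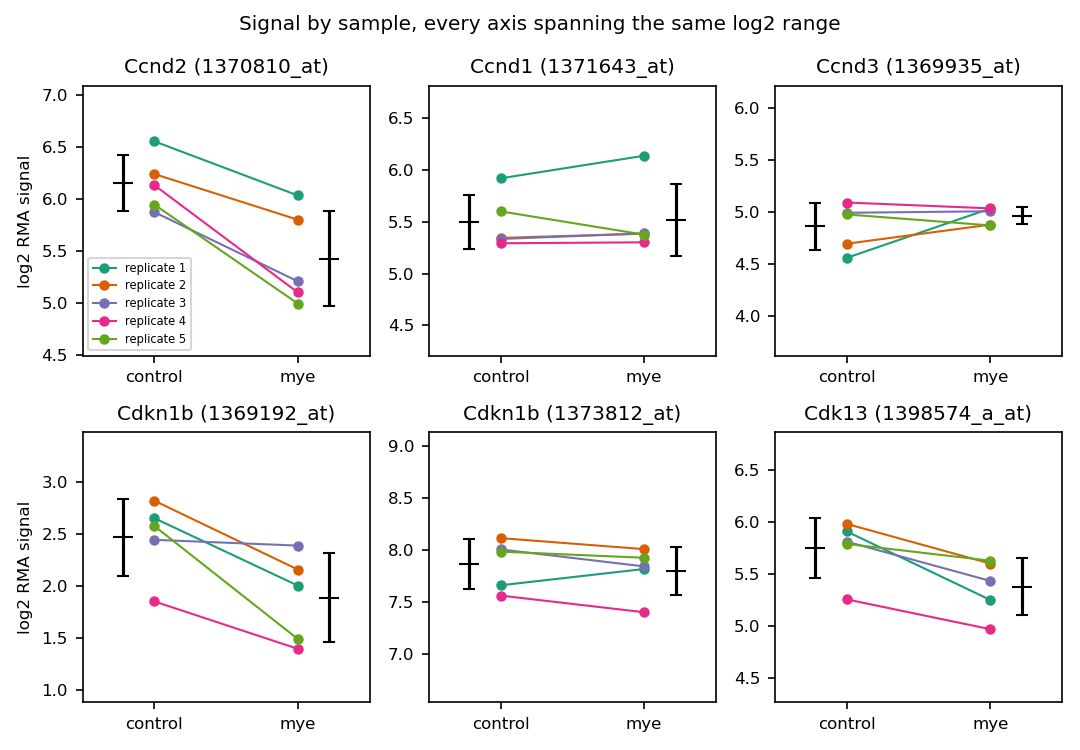
Log2 RMA signal of 6 probe sets in control macrophages and mye-macrophages, with lines joining samples of the same replicate number and bars giving the mean ± SD of 5 samples. Ccnd2, the first Cdkn1b probe set and Cdk13 fall in every pair, each with overlapping groups. Ccnd1 (probe set 1371643_at only), Ccnd3 and the second Cdkn1b probe set (log2 fold change -0.07) do not fall in every pair.

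E-type cyclins, which follow the D-type cyclins in G1, had 1 probe set in the variance filter, and it did not pass. The probe sets of Ccne2 had log2 fold changes of 0.18 and 0.05 and that of Ccne1 had 0.06. The 4 kinases of the cell cycle (Cdk1, Cdk2, Cdk4 and Cdk6, on 5 probe sets, of which the filter kept that of Cdk1) lay between -0.01 and 0.15. Cdk4, the main partner of D-type cyclins, had 7.48, 7.41, 7.48, 7.39 and 7.53 in control macrophages and 7.35, 7.34, 7.69, 7.49 and 7.61 in mye-macrophages (log2 fold change 0.04, 95% interval -0.13 to 0.20). These ranges overlap. Cdk6, the other partner, had mean signals of 0.95 and 1.06, near the floor of the arrays.

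Cyclins of S phase and mitosis were dim. Of the 7 probe sets of Ccna1, Ccna2, Ccnb1, Ccnb2 and Ccnf, 5 lay on average under the median of the arrays. The variance filter kept 2, both of Ccnb1, and neither passed. Ccnb1 (cyclin B1), another gene that the study picked from these arrays, had 2.03, 1.76, 1.52, 1.53 and 1.71 in control macrophages and 1.37, 1.39, 1.60, 1.39 and 1.53 in mye-macrophages on probe set 1370346_at. It was lower in 4 of 5 pairs (log2 fold change -0.26, standard error 0.10, adjusted p = 0.198 from blocked limma), while its other probe set had 0.02. Without replicate 1 the value was -0.15, and with the gap of the beta-actin control probe sets as a covariate it was -0.07. Ccnb2 had -0.18 and Ccna2 had 0.15, both outside the variance filter.

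Among the inhibitors, Cdkn1b fell on 1 of its 2 probe sets. On the dim probe set 1369192_at control macrophages had 2.66, 2.82, 2.45, 1.85 and 2.58 and mye-macrophages 2.01, 2.16, 2.39, 1.40 and 1.49. All 5 pairs went down, the third by 0.06 and the fifth by 1.09, and control replicate 4 lay below 3 of the mye-macrophage samples. Cdkn1b fell by 0.58 there on the log2 scale (standard error 0.13, adjusted p = 0.0451 from blocked limma). On probe set 1373812_at the signals were 7.66, 8.11, 8.01, 7.56 and 7.98 in control macrophages and 7.82, 8.01, 7.84, 7.40 and 7.93 in mye-macrophages, and the log2 fold change was -0.07 (95% interval -0.23 to 0.10). The difference between the 2 probe sets was -0.52 ± 0.44 and ran the same way in 4 of 5 pairs (two-sided exact sign-flip permutation test, p = 0.125). This difference is not independent evidence, as the dim probe set was compared because it was called in these same pairs. Adjusted over all probe sets without the variance filter, the call was lost (adjusted p = 0.0902 from blocked limma), and of the fits that left out 1 pair only that without replicate 3 kept it.

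Of the remaining inhibitors no filtered probe set passed. Cdkn2d, the INK4 inhibitor p19, had log2 fold changes of 0.19 and 0.15 on its 2 probe sets. The first was higher in 5 of 5 pairs, with 5.66, 5.56, 5.81, 6.16 and 5.91 in control macrophages and 5.93, 5.85, 6.04, 6.21 and 6.02 in mye-macrophages, and its adjusted p was 0.165 from blocked limma. Cdkn2a, which encodes p16 and Arf, had -0.17, Cdkn2b (p15) had -0.11, and Cdkn2c (p18) had 0.07 and -0.03. Cdkn1c (p57) had 0.04. The CDK phosphatase gene Cdkn3 had 2.02, 1.93, 1.99, 2.28 and 2.00 against 2.27, 1.56, 1.76, 1.84 and 1.70, and was lower in 4 of 5 pairs (log2 fold change -0.22, adjusted p = 0.260 from blocked limma).

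Pocket proteins and E2F factors lay close to 0. The log2 fold changes of Rb1, Rbl1 (p107) and Rbl2 (p130) were -0.12, -0.09 and 0.04, with the widest 95% interval among them, that of Rbl1, running from -0.29 to 0.12. Rb1 had 7.02, 6.92, 6.71, 6.75 and 7.01 in control macrophages and 6.98, 6.59, 6.87, 6.56 and 6.81 in mye-macrophages, which overlap. The 7 E2F probe sets, one for each of E2f1, E2f2 and E2f4 to E2f8, ran from -0.21 for E2f5 to 0.12 for the atypical repressor E2f7. E2f4, the repressor that binds Rbl1 and Rbl2 in resting cells, was higher in 5 of 5 pairs by a mean of 0.12, and the variance filter did not keep it. E2f1, E2f2 and E2f8, which rise in dividing cells, had -0.05, 0.03 and 0.08. Mean signals of E2f2 (0.93 and 0.96), E2f7 (0.72 and 0.84) and E2f8 (0.88 and 0.96) lay near the floor of the arrays. Of the 7 E2F probe sets the variance filter kept only that of E2f7, and it did not pass.

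The promoters of the group were read from the RefSeq promoter table of the GRCr8 build, which holds 62 windows for 55 of the 69 genes, among them Cdkn1b and not Ccnd2 or Cdk13. In the 250 bases before the start, the letters TTTCGCGC, TTTGGCGC, TTTCCCGC or TTTGCCGC, forms of the E2F element, stood on either strand in 2 of the 62 windows, those of Cdk1 and Rbl1, beside 1.73% of all windows. The CHR element TTTGAA of mitotic genes stood in 8 windows (16.2% of all windows) and the letters CCAAT in 26 (34% of all windows), and both together in 6 windows of 5 genes, Ccnb2, Ccnf, Cdk1, Cdk16 and Cdkn3, beside 5.87% of all windows. No element holds another in its letters. A match is a description of the sequence and not a site in use. Shown here are the window of Cdkn1b, the 1 called gene with an entry, and those of Cdk1 and Rbl1, which hold the E2F letters and had log2 fold changes of 0.15 and -0.09 with no call. Capitals mark the letters of these elements on either strand, and the printed strand is that of the gene, 5′ to 3′, ending at the base before the start.
Cdkn1b, chr4:169491254-169491503, plus strand: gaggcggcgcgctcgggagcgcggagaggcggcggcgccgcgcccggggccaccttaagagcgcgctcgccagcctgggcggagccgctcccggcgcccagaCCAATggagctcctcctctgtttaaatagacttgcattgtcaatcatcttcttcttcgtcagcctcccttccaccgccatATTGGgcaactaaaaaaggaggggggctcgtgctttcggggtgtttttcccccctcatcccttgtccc
Cdk1, chr20:19265043-19265292, plus strand: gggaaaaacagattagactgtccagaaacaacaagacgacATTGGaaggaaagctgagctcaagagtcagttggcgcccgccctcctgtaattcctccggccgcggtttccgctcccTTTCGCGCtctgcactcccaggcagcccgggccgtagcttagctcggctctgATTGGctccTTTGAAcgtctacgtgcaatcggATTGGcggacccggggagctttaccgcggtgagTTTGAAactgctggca
Rbl1, chr3:166289377-166289626, minus strand: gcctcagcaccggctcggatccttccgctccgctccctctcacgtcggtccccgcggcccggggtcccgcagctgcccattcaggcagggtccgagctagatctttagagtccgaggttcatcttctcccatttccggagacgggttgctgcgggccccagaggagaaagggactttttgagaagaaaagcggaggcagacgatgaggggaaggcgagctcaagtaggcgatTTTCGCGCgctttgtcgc

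In the Cdk1 window the E2F letters begin 133 bases before the start and the CHR letters 72 and 16 bases before it, with CCAAT letters on the reverse strand 210, 81 and 49 bases before it. The Rbl1 window holds the E2F letters 18 bases before its start. Cdkn1b holds CCAAT letters 148 and 68 bases before its start and neither of the other elements. Cdk1, the mitotic kinase gene whose window holds all 3 elements, had mean signals of 1.81 in control macrophages and 1.96 in mye-macrophages (log2 fold change 0.15, 95% interval -0.10 to 0.40).

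Among the kinases of transcription, Cdk13, which phosphorylates RNA polymerase II with cyclin K, fell on probe set 1398574_a_at. Control macrophages had 5.91, 5.98, 5.81, 5.25 and 5.79 and mye-macrophages 5.25, 5.60, 5.43, 4.97 and 5.63. All 5 pairs went down, and control replicate 4 stood below the other controls, at the level of the mye-macrophages. The log2 fold change was -0.37 (standard error 0.08, 95% interval -0.56 to -0.19, adjusted p = 0.0473 from blocked limma). Both further Cdk13 probe sets had 0.06. One did not pass, and the variance filter did not keep the other. The gap to the called probe set was -0.43 on each, in 5 of 5 pairs on one and 4 of 5 on the other (two-sided exact sign-flip permutation tests, p = 0.0625 and 0.125). These gaps are not independent evidence, as the probe set was compared because it was called in these same pairs. The call was lost in the same blocked limma fit without the variance filter (adjusted p = 0.0947), after quantile normalization (adjusted p = 0.0539) and without any 1 of the 5 pairs (lowest adjusted p = 0.0621).

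Cdk12, the closest relative of Cdk13, had log2 fold changes of -0.25 and 0.09. The first comes from a probe set with 2.56, 3.59, 2.46, 3.04 and 3.26 against 3.55, 2.55, 2.63, 2.85 and 2.06, where pairs moved in both directions. Cdk7, the kinase of TFIIH, was lower in 5 of 5 pairs, with 6.58, 6.57, 6.38, 6.13 and 6.54 against 6.20, 6.31, 6.29, 6.07 and 6.29 (log2 fold change -0.21, adjusted p = 0.163 from blocked limma). Its partner cyclin gene Ccnh had -0.09, also lower in 5 of 5 pairs. Cdk11b had -0.22 on a probe set with 4.80, 5.08, 4.72, 4.49 and 4.90 in control macrophages and 4.47, 4.59, 4.62, 4.56 and 4.67 in mye-macrophages, and -0.05 and -0.00087 on the others. The Mediator kinases Cdk8 and Cdk19 had -0.01 and -0.17, Cdk9, the kinase of P-TEFb, had 0.05 and 0.03, and its cyclin gene Ccnt2 ran from -0.12 to 0.18 over 4 probe sets. Cyclins K, L1 and C had values of -0.14 to 0.05.

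Cyclins and kinases outside the cycle and transcription gave no call among their 7 and 11 filtered probe sets. Of the 10 probe sets of these cyclins 9 lay above 0, and of the 13 of these kinases 5 did, beside 16012 of 31042 over the array. Ccni (cyclin I) had 7.09, 7.0, 6.97, 7.55 and 6.79 in control macrophages and 7.76, 7.42, 7.14, 7.68 and 6.75 in mye-macrophages, and was higher in 4 of 5 pairs (log2 fold change 0.27, adjusted p = 0.182 from blocked limma). Cdk20, which takes part in cilia, had 4.94, 4.79, 4.94, 5.16 and 5.07 against 5.22, 4.84, 5.32, 5.39 and 5.24, higher in 5 of 5 pairs (0.22, adjusted p = 0.135 from blocked limma). Cdk16 was higher in 5 of 5 pairs as well (0.17), while Cdk17 was lower in 5 of 5 (-0.08) and Cdk10 had values of -0.14 to -0.0071 on its probe sets. Of the proteins only named after a family member, Cdkn2aip, a protein that binds Arf, came nearest to a call. Its probe set 1393369_at had 4.06, 4.88, 4.21, 3.40 and 4.38 against 3.79, 4.33, 4.13, 3.22 and 4.09, lower in 5 of 5 pairs (-0.27, adjusted p = 0.108 from blocked limma). Another probe set of Cdkn2aip had -0.18 and the third 0.10.

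Over the whole group, 9 probe sets were lower and 5 higher in 5 of 5 pairs, which is 13.1% of 107. Over all probe sets the share was 12.8%, with 6.59% lower and 6.16% higher. None of the 107 probe sets had groups that did not overlap, beside 0.734% of all probe sets. For 103 of the 107, the 95% interval of the log2 fold change lay within 0.5 of 0, so for these a difference of that size in signal is outside the interval. Of the 107, 35 lay on average under the median of all values. Near the floor of the arrays a narrow interval does not exclude a change in the RNA. Of the 25 genes with more than 1 probe set, 13 had probe sets of both signs.

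Members also differed between replicate numbers. In the blocked limma fit the replicate number itself passed an adjusted p of 0.05, over all probe sets, for 21 of the 107 probe sets (19.6%, 17 genes), beside 16.4% of all probe sets. Cdk14, Ccnk and Cdkn2aip had the widest ranges and are named here after their values were seen. Cdk14, a kinase activated by cyclin Y at the membrane, had 6.76, 5.90, 6.43, 7.30 and 6.03 in control macrophages and 6.91, 5.66, 6.55, 7.42 and 6.02 in mye-macrophages on probe set 1374747_at. Replicate 4 was highest and replicate 2 lowest in both groups, 1.58 apart on the log2 scale as pair means, while the groups differed by 0.03. Ccnk (cyclin K) ran the other way, with 8.30, 8.75, 7.92, 7.47 and 8.13 against 7.89, 9.03, 7.83, 7.16 and 8.27. Replicates 2 and 4 held both ends in 12 of the 21 probe sets. The mean of the macrophage markers was likewise lowest in replicate 2 (6.36 and 6.41) and highest in replicate 4 (7.33 and 7.59), and that of granulocyte and mast cell markers was highest in replicate 4 (2.87 and 2.95). Their part in these differences was not tested.

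**Figure D3:**
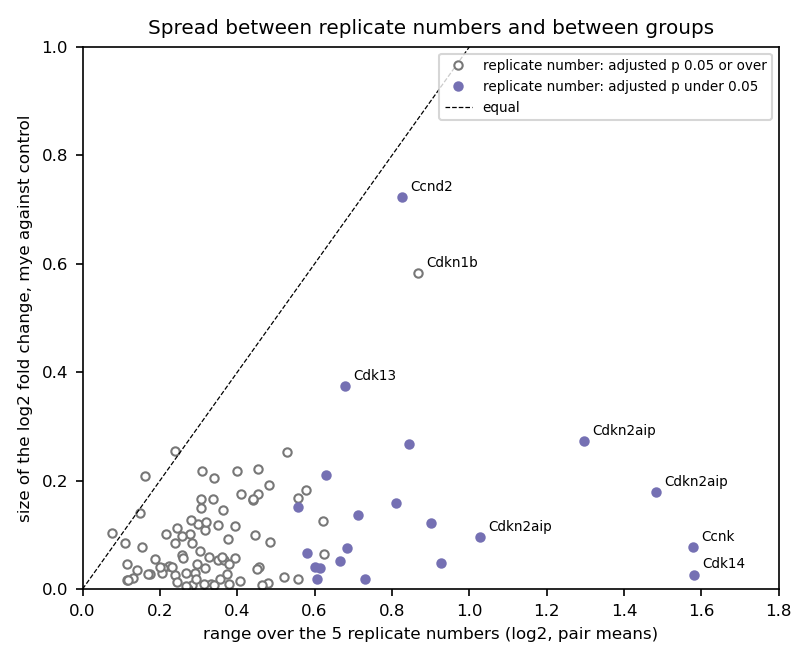
For each of the 107 probe sets, the range of the pair means over the 5 replicate numbers (horizontal axis, log2) and the size of the log2 fold change between the groups (vertical axis). Cdk14 and Ccnk reach 1.58 on the horizontal axis with group differences under 0.1, whereas Ccnd2 has the largest group difference at a range of 0.83.

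Ccnd2 and Ccnd1 shared their high replicate. Both had their highest pair mean in replicate 1, and the replicate number passed for Ccnd2 (adjusted p = 0.0163) and for 2 of the 3 Ccnd1 probe sets (adjusted p = 0.0187 and 0.0116, F test of blocked limma). The mean over 14 markers of T and NK cells, which also use D-type cyclins, was highest in replicate 1 too (2.86 in control macrophages and 3.02 in mye-macrophages). It was higher in mye-macrophages in 2 of 5 pairs, ranged from 2.23 to 2.86 in control macrophages and from 2.12 to 3.02 in mye-macrophages, and none of its 16 filtered probe sets passed. The markers Cd3e and Cd3d had mean signals of 2.36 or less on all their probe sets. They do not stand for the whole list, as only 7 of its 14 genes lay under the median of all values on their brightest probe set. In B cell, mesothelial and fibroblast, and granulocyte and mast cell lists, none of the 8, 8 and 11 filtered probe sets passed in blocked limma. Myelin genes did move, with 3 of 14 filtered probe sets higher (Mbp, Mobp and Bcas1), and the mean of that list was 2.04 to 2.36 in control macrophages and 2.49 to 2.68 in mye-macrophages. The study states, from data it does not show, that RNA in its myelin was negligible. The part of other cells or of RNA carried with myelin in the Ccnd2 difference was not tested.

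A sign of RNA quality moved in part with the groups. The gap between the 3 prime and 5 prime control probe sets of beta-actin was 3.02 ± 0.30 in control macrophages and 3.30 ± 0.32 in mye-macrophages (log2, SD, n = 5 each), and higher in mye-macrophages in 4 of 5 pairs (two-sided exact permutation test, p = 0.190). For Gapdh the gap was 0.40 ± 0.14 in control macrophages and 0.42 ± 0.13 in mye-macrophages (SD, n = 5 each). These means differed by only 0.017, with mye-macrophages higher in 4 of 5 pairs (two-sided exact permutation test, p = 0.770). Once the gap of beta-actin entered the fit beside the block, as a covariate, no probe set of the group passed in limma, and 7 had an unadjusted p under 0.05. Over all filtered probe sets 16 passed then (0.103%), in place of 418. Ccnd2 then had -0.81 (adjusted p = 0.0671), Cdkn1b -0.43 and Cdk13 -0.30 (adjusted p = 0.308 and 0.309, limma). The size of the Ccnd2 difference was not smaller with the covariate.

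**Figure D4:**
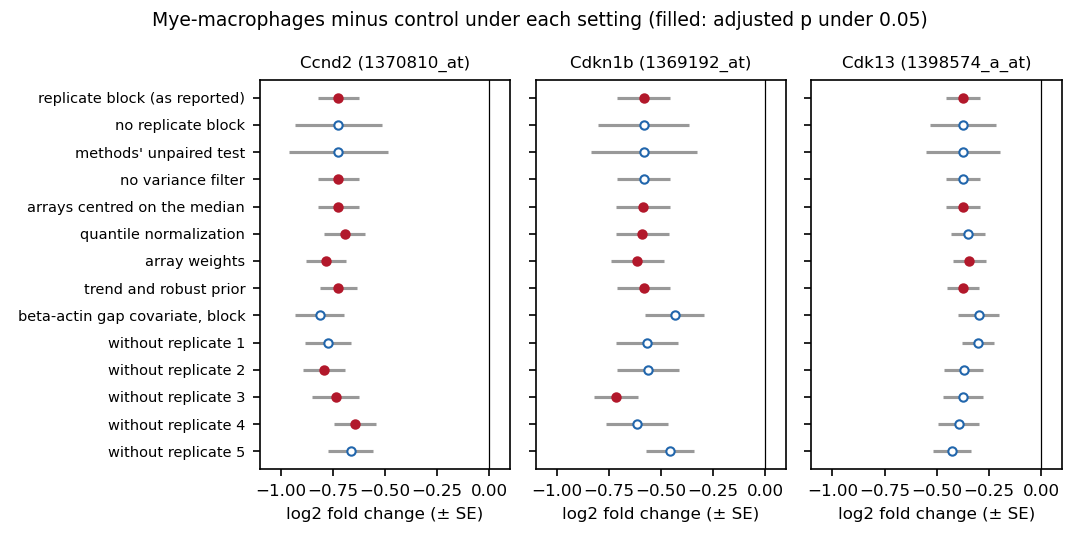
Log2 fold change, mye-macrophages minus control macrophages, of the 3 called probe sets under each setting, with its standard error. Filled points have an adjusted p under 0.05. Every value lies below 0, and the Ccnd2 values lie between -0.81 and -0.65.

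Genes that work with the group in the cell cycle showed isolated calls. Among 33 measured genes of DNA replication and S phase, 1 of 28 filtered probe sets rose and none fell. Over all filtered probe sets 0.792% were called higher and 1.9% lower. Among 28 genes of mitosis and 29 regulators of CDK activity, none of 19 and 23 filtered probe sets passed in blocked limma. The medians with 1 probe set per gene were 0.0030, 0.09 and -0.06 on the log2 scale, beside 0.0055 over all named genes. The replication gene that rose was Lig1, DNA ligase 1 (0.36, adjusted p = 0.0461 from blocked limma), while its other probe set had -0.21. The Lig1 call was lost without the variance filter (adjusted p = 0.0922 from blocked limma) and without the block (adjusted p = 0.585 from limma). Tyms, the thymidylate synthase gene, had -0.39 and was lower in 5 of 5 pairs (adjusted p = 0.0794 from blocked limma). Among the mitosis genes Ttk had 0.27, Aurkb 0.25 and Ube2c 0.24, all at mean signals of at most 2.63. The mean over the mitosis list was higher in mye-macrophages in 5 of 5 pairs, by small amounts (1.92 to 2.02 against 1.97 to 2.16), and 31 of its 41 probe sets lay under the median of all values. That of the CDK regulators was lower in 5 of 5 pairs, by amounts as small (5.00 to 5.18 in control macrophages against 4.94 to 5.12), and that of the S phase genes was lower in 4 of 5. The phosphatase gene Cdc25b had 0.27 (adjusted p = 0.0538 from blocked limma) and the P-TEFb inhibitor gene Hexim1 -0.25.

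Of 10 measured partners of the pocket proteins and E2F factors, with 5 filtered probe sets, Mybl1 was the only one called. Mybl1 encodes A-Myb, a factor of the Myb family, of which the related B-Myb joins the core of the DREAM complex to drive cell cycle genes. It fell by 0.70 (standard error 0.11, adjusted p = 0.0161 from blocked limma), lower in 5 of 5 pairs, with means of 3.81 in control macrophages and 3.10 in mye-macrophages. The groups overlapped, at 2.60 to 4.61 in control macrophages and 1.77 to 3.78 in mye-macrophages. Without the block the standard error was 0.44 and Mybl1 did not pass (adjusted p = 0.882 from limma). The E2F dimer partner gene Tfdp1 had 0.05, and the DREAM subunit genes Lin37, Lin52 and Lin54 had -0.15, -0.13 and -0.11. The median of this list, with 1 probe set per gene, was -0.04. Its mean signal was lower in mye-macrophages in 5 of 5 pairs (4.30 to 4.71 in control macrophages against 4.20 to 4.52). That mean includes Mybl1, whose pair differences ran from -1.01 to -0.29, and in replicate 3 it went only from 4.50 to 4.49. The mean of the list without Mybl1 was not taken.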

How the data were processed

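Total RNA was hybridised to 10 Affymetrix rat genome arrays, 5 per group. All were used, grouped and numbered by their titles, which do not say what a number stands for. For every probe set the authors deposited an RMA value (affy package), here read as log2. The array medians of 2.30 to 2.35 are lower than RMA values usually lie, for a reason not given in the sources used here. The 57 control probe sets were left out of the fits. Gene names came from the annotation of the array. The comparison used limma 3.58.1 (R 4.3.3) on all 31042 probe sets, blocked by replicate number, and adjusted over the 15521 with the larger interquartile range. The block follows the comparison set for these genes, whereas the study's methods name an unpaired test. Deviations from the group means correlated at 0.404 to 0.791 for samples with the same number, at most at 0.279 otherwise. The fit was tested on simulated data. Permutation tests were run in Python 3.11.15. For arrays, their number limits the precision. Genes given with every value are those called, the D-type cyclins and the 10 filtered probe sets with the largest changes. Some further members are shown for their role. The members and lists were chosen with earlier results of these data known.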

Additional observations from a re-analysis of the deposited data

Results flagged for a closer look

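In 3 of the 28 groups of 5 samples checked, 1 sample stood far from the other 4, where chance flags about 1 in 20 groups. For Ccnd1 on probe set 1371643_at it was mye-macrophages of replicate 1, at a log2 signal of 6.13 against at most 5.39 in the others, and without that pair the log2 fold change was -0.03 in place of 0.02. For Cdkn3 it was control replicate 4, at 2.28 against at most 2.02. For Cdk13 on probe set 1398574_a_at it was control replicate 4, at 5.25 against at least 5.79, and without that pair Cdk13 had -0.40 and did not pass (adjusted p = 0.110 from blocked limma). Their cause was not tested.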

How the results depend on the processing

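The called probe sets of Ccnd2, Cdkn1b and Cdk13 stayed below 0 under each alternative that held them (taking the brightest probe set per gene leaves out that of Cdkn1b), and their calls did not all hold. The number of probe sets of the group called, 3 with the replicate block and all lower, was 0 with no replicate block, 0 by the methods' t-test, 1 (Ccnd2) with no variance filter and 0 once the beta-actin gap entered as a covariate. Over the whole array these settings called 0, 0, 128 (0.412%) and 16 (0.103%), in place of 418. With 1 pair left out it ran from 0 (without replicate 1 or 5) to 2 (without replicate 3), with 1 without replicate 2 or 4, while the count over the array ran from 31 (without replicate 1) to 672 (without replicate 3), with 42, 72 and 38 without replicates 2, 4 and 5. No probe set was called higher under any of them. The methods' t-test gave 2 probe sets of the group at an unadjusted p under 0.05, and limma with no replicate block 4. Ccnd2 kept its difference of -0.72 but not its call with no replicate block and by the methods' t-test (adjusted p = 0.534 and 0.850), and had -0.81 with that covariate. With 1 pair left out its value ran from -0.79 to -0.65 (adjusted p = 0.0143 to 0.0611, limma). Ccnd1 on probe set 1371643_at turned to -0.0055 with array weights and -0.021 with the covariate, and ran from -0.030 (without replicate 1) to 0.080 (without replicate 5), and Ccnd3 turned to -0.026 with the covariate. The median of the regulators of CDK activity was -0.026 after quantile normalization and -0.059 to -0.0061 with 1 pair left out. The causes of these shifts were not tested. Leaving out 1 sample breaks its pair, so pairs were left out. Members near the floor of the arrays limit what can be seen for S phase and mitosis.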
